A study of Mus musculus with 15 samples.

Results

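Inflammatory signalling genes were followed in mouse embryonic fibroblasts that lacked p27, stathmin or both. The gene set held 37 listed chemokines, cytokines and NF-kB response genes, and its members on the array were all probes that carry one of these names. The rule found 47 probes for 35 of the 37 genes, among 41174 distinct probes in all. Of these, 45 probes for all 35 genes were bright enough to be tested, among 27700 tested probes. The probe of Vcam1 numbered A_52_P462332 and the probe of C3 numbered A_52_P133594 were too dim, but both genes had another probe. Lif had no probe under that name, and Il33 was found only under the older name 9230117N10Rik, so its values are given apart. It is in no count of member probes or genes below, except in the promoter windows of the listed genes and where it is named as included.

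The 15 cultures came from C57B6 embryos at 13.5 days post coitum, were at passage 3 and were harvested at high confluence after 24 h without serum. There were 4 wild type arrays, 4 from p27 knock-out cells, 4 from stathmin knock-out cells and 3 from double knock-out cells that lack both proteins. p27 (gene Cdkn1b) inhibits cyclin-dependent kinases, and stathmin (gene Stmn1) destabilises microtubules. Each array set Cy5-labelled sample RNA against Cy3-labelled RNA of pooled fibroblasts of the same kind, so a value is the log2 ratio of sample to reference, and 0 means the level of the pool. Arrays of the same genotype are biological replicates according to the labels, but no source used here describes the knock-out alleles or the litters.

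NF-kB is a family of transcription factors held inactive in the cytoplasm by inhibitor proteins such as the product of Nfkbia. Ligands such as interleukin 1 and tumour necrosis factor release it, and it then switches on chemokines, cytokines, adhesion molecules and its own inhibitors. Fibroblasts are not immune cells but answer these ligands strongly, and chemokines made by them recruit neutrophils and monocytes.

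The genes that varied most between cultures are shown first by the DNA before their start sites, since many of them are textbook NF-kB targets. Of the 37 listed genes, 27 had at least 1 window in the RefSeq table (GRCm38.p6) of 300 bases, from 250 before to 50 after the start site, and they had 32 windows together. Lif and Il33 are among these 27. A match to the NF-kB consensus, on either strand, stood in the windows of 10 of these 27 genes (37.0%), against 5.14% of the 27025 genes in the table. The AP-1 motif TGANTCA stood in windows of 9 of the 27 genes (33.3%, against 8.97%), the C/EBP motif TTGCNNAA in 7 (25.9%, against 12.2%), and the core of the interferon-stimulated response element in 3 (11.1%, against 3.99%). All motifs were searched on both strands, and no match of one motif overlapped a match of another in these windows. These shares describe letters, and binding was not measured. The genes were listed as chemokines, cytokines and NF-kB response genes, so their share of NF-kB matches is no independent result. The windows below are those of Il6, Cxcl1, Ccl20, Cxcl10 and Saa3, which are among the 10 members with the largest spread between replicate arrays, and of Nfkb2, the member with the smallest. Capitals mark matches to the NF-kB consensus, and each sequence runs 5′ to 3′ on the gene's own strand.

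Il6, chr5:30012864-30013163, plus strand: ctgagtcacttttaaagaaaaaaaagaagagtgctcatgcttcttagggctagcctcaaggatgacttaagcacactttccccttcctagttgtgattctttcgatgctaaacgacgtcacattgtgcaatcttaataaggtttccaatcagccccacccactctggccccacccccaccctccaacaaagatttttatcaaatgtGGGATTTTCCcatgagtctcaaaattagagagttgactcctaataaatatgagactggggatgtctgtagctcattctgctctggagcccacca
Cxcl1, chr5:90890995-90891294, plus strand: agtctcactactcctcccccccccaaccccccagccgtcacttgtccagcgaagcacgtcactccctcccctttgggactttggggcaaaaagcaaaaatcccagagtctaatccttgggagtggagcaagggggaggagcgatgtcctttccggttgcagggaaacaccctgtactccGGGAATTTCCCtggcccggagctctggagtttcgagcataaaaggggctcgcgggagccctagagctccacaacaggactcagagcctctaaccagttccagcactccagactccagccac
Ccl20, chr1:83116516-83116815, plus strand: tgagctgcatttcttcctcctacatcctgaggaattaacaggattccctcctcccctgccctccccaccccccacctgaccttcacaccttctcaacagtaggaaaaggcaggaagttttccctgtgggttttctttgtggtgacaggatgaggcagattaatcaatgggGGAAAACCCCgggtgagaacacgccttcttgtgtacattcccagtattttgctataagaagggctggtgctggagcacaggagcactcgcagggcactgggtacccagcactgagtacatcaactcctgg
Cxcl10, chr5:92348840-92349139, minus strand: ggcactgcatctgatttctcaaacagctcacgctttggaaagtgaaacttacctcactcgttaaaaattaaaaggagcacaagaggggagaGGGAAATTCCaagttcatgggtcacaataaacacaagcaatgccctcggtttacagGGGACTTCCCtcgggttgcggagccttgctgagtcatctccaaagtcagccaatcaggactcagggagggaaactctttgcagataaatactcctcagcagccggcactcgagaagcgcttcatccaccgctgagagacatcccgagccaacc
Saa3, chr7:46715627-46715926, minus strand: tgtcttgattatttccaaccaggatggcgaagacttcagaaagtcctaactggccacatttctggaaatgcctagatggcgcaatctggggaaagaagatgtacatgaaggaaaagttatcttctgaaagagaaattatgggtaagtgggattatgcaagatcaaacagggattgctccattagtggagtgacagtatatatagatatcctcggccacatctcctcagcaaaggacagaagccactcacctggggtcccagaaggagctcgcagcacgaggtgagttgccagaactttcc
Nfkb2, chr19:46304487-46304786, plus strand: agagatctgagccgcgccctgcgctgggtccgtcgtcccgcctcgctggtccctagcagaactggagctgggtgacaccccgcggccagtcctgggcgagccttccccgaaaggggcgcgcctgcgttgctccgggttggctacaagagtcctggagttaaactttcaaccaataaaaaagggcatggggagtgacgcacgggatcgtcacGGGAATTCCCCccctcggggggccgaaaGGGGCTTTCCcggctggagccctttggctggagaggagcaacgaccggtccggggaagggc

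The match in Il6 began 44 bases before the start site, that in Ccl20 80 bases before it, and those in Cxcl10 159 and 103 bases before it. In Cxcl1 a pair of matches on opposite strands overlapped at 71 and 70 bases before the start. The window of Saa3 held none, and the window of Nfkb2 shown, 1 of its 3, held 3. Of the 10 most variable members 9 had a window and 5 of these a match. Among the other measured members 16 had a window and 5 of these a match.

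The first question was how strongly the members differ between cultures of 1 genotype. The spread of a probe is its residual SD, the SD of its log2 ratio around the genotype means. The median over the 35 member genes, each taken at its brightest tested probe, was 1.55, against 0.32 over all 27700 tested probes. Of the 35 genes, 30 lay above the value that 90% of all tested probes stay under (0.70) and 18 above the value that 99% stay under (1.44). The median SD of the members was 0.55 within wild type, 2.08 within p27 knock-out, 1.60 within stathmin knock-out and 1.01 within double knock-out. The SD was smallest in wild type for 25 of the 34 genes with a value in every genotype. How many of all tested probes have their smallest SD in wild type was not counted. Over all tested probes the median SDs, in the same order of genotypes, were 0.23, 0.34, 0.32 and 0.21, the smallest in double knock-out. These values describe the arrays and were not tested, and they rest in part on wild type 3 and 4, whose ratios correlated at 0.81 over all tested probes. With wild type 3 and 4 averaged to 1 replicate, the median residual SD of the members was 1.62.

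**Figure D1:**
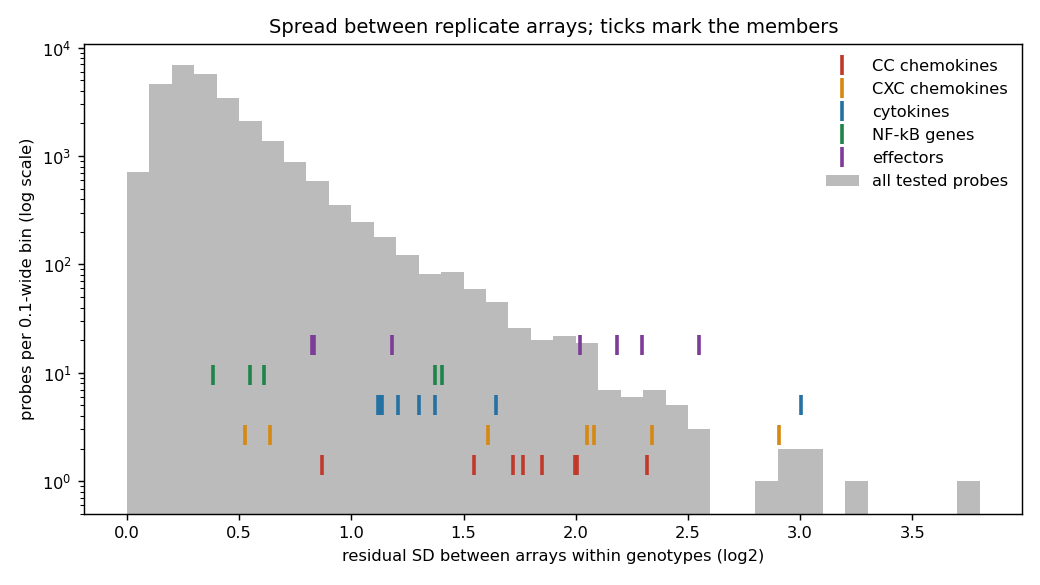
Histogram of the residual SD (log2) of all 27700 tested probes on a log count axis, with ticks at the 35 member genes by role, each role on a row of its own. The ticks of chemokines, cytokines and effectors reach from 0.52 for Cxcl12 (values on 6 arrays) to 3.00 for Il6. Nfkb2, Relb and Nfkb1 lie between 0.39 and 0.61.

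The roles were not equally variable. The 8 CC chemokines had residual SDs from 0.87 to 2.32, and the 7 CXC chemokines from 0.52 to 2.91. The 0.52 is that of Cxcl12 at its brightest probe, with values on 6 arrays and on none of the p27 knock-out. Its second probe, with 15 values, had SDs of 0.35 within wild type, 1.72 within p27 knock-out, 1.18 within stathmin knock-out and 0.32 within double knock-out. The 8 cytokines ranged from 1.12 to 3.00 and the 7 effectors from 0.82 to 2.55. The 5 NF-kB genes ranged from 0.39 to 1.404, and within them, at the brightest probes, the inhibitors Tnfaip3 (1.404) and Nfkbia (1.37) varied more than the transcription factor subunits Nfkb1 (0.61), Relb (0.55) and Nfkb2 (0.39).

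Repeat spots on 1 array give the error of the spot alone, since they share the culture, the labelling and the hybridisation. For 10 members the array carries 1 probe in 10 spots, and the SD of the log2 ratio between spots of an array had a median from 0.048 for Ptgs2 to 0.173 for Csf2. For Il6 it was 0.078, against a residual SD of 3.00 between arrays.

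**Figure D2:**
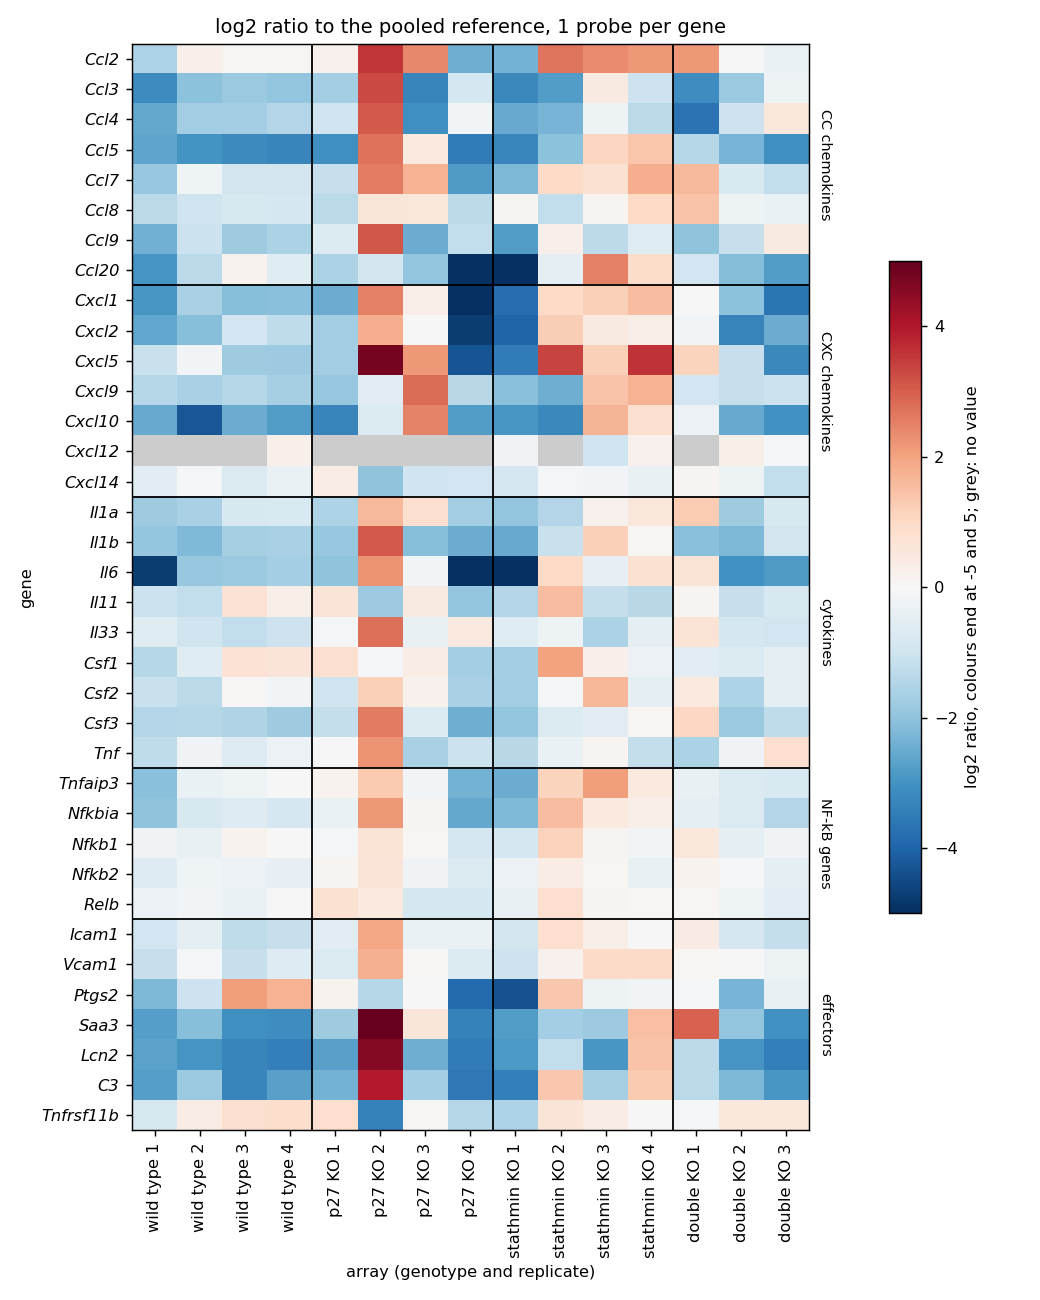
Heat map of log2 ratios to the pooled reference for 36 genes (rows, grouped by role, with Il33 among the cytokines) on 15 arrays (columns, grouped by genotype); red is above and blue below the reference. The column of p27 knock-out 2 is mostly red, those of p27 knock-out 4, stathmin knock-out 1 and wild type 1 are mostly blue, and Cxcl12 has no value on 9 arrays at its brightest probe.

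A few arrays stood apart for most members. p27 knock-out 2 was the highest of the 15 arrays for 21 of the 34 member genes with a value on every array, with a median member ratio of 1.88. There 16 of the 34 genes lay above 2, against 1.76% of all tested probes, and 1.31% of all tested probes lay below -2. Both shares of all probes were the largest of the 15 arrays, so this array stood apart beyond the members too. On p27 knock-out 4 the median was -2.16 and on stathmin knock-out 1 it was -2.23, and these were the lowest 2 arrays for 16 of the 34 genes. In stathmin knock-out cells, arrays 2, 3 and 4 all lay above array 1 for 29 of the 34 genes, with member medians of 0.30, 0.24 and 0.30. In double knock-out cells array 1 lay above arrays 2 and 3 for 27 of the 34 genes, with medians of -0.035, -1.15 and -0.79. The wild type medians were -1.84, -1.14, -0.93 and -0.89, and all 4 wild type arrays lay below the pool for 25 of the 34 genes. Over all tested probes the median of an array lay between -0.023 (wild type 1) and -0.0023 (double knock-out 3). How many of all tested probes give these same orders of arrays was not counted.

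The arrays also differed in sex-linked genes, and the labels used here give no sex of the embryos. The Y-linked gene Ddx3y had log2 ratios of -7.24 on p27 knock-out 2, -7.47 on stathmin knock-out 1, -7.22 on stathmin knock-out 2 and -7.48 on double knock-out 1, and lay between -0.26 and 0.83 on all other arrays. Xist, which is transcribed from the inactive X chromosome, was at 1.91, 1.01, 1.98 and 0.63 on these 4 arrays, at 0.20 on wild type 1 and at -1.76 or below on the rest. p27 knock-out 2, where most members were highest, and stathmin knock-out 1, where the member median was lowest, were both among these 4 arrays. With the ratio of Xist as a covariate, the median residual SD of the members was 1.47 in place of 1.55, and limma called 0 member probes in each comparison.

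The CC chemokines attract monocytes, macrophages and lymphocytes. Ccl20, the ligand of Ccr6, had the widest spread of them. Its log2 ratios were -2.97, -1.36, 0.19 and -0.62 in wild type, -1.60, -0.94, -1.96 and -5.47 in p27 knock-out, -5.85, -0.43, 2.51 and 0.94 in stathmin knock-out, and -0.97, -2.15 and -2.78 in double knock-out. The lowest arrays were p27 knock-out 4 and stathmin knock-out 1, the highest was stathmin knock-out 3, and the genotypes overlapped. Ccl2, a monocyte attractant, ranged from -2.45 on p27 knock-out 4 to 3.58 on p27 knock-out 2, and Ccl7, which shares its receptor Ccr2, from -2.83 to 2.54 on the same arrays. Ccl5 ranged from -3.50 to 2.70, again on those arrays. Ccl3, Ccl4 and Ccl9, ligands of receptors on macrophages and lymphocytes, had their highest values on p27 knock-out 2 (3.32, 3.06 and 3.09) but not their lowest on p27 knock-out 4. Their values there were -0.88, -0.13 and -1.25, and on p27 knock-out 3 they were -3.30, -3.06 and -2.46. Ccl8 had the narrowest range, from -1.37 to 1.42.

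Among the CXC chemokines, Cxcl1, Cxcl2 and Cxcl5 bind Cxcr2 and attract neutrophils. Cxcl5 had values of -1.13, -0.14, -1.79 and -1.82 in wild type, -1.75, 4.79, 2.18 and -4.30 in p27 knock-out, -3.51, 3.37, 1.18 and 3.59 in stathmin knock-out, and 1.10, -1.14 and -3.23 in double knock-out. Cxcl1 had -2.90, -1.62, -2.12 and -2.10 in wild type, -2.49, 2.50, 0.34 and -5.14 in p27 knock-out, -3.82, 0.98, 1.19 and 1.53 in stathmin knock-out, and -0.00044, -2.05 and -3.66 in double knock-out. Cxcl2 had -2.59, -2.12, -0.95 and -1.28 in wild type, -1.73, 1.83, -0.039 and -4.76 in p27 knock-out, -4.01, 1.25, 0.47 and 0.35 in stathmin knock-out, and -0.15, -3.33 and -2.47 in double knock-out. All 3 genes had p27 knock-out 4 as their lowest array, and in each the wild type values lay inside the range of both single knock-outs. Cxcl5 was saturated on 3 arrays, so its ratios there are not exact. In stathmin knock-out cells, 3 of 4 arrays stood above every wild type array for each of the 3 genes.

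Cxcl9 and Cxcl10, induced by interferon and recognised by Cxcr3, ordered the arrays differently. Cxcl10 had -2.52, -4.30, -2.47 and -2.81 in wild type, -3.31, -0.66, 2.50 and -2.80 in p27 knock-out, -2.90, -3.22, 1.69 and 0.79 in stathmin knock-out, and -0.30, -2.54 and -3.04 in double knock-out. Its highest array was p27 knock-out 3 rather than p27 knock-out 2, and stathmin knock-out 2, high for Cxcl5, stood low. Cxcl9 likewise peaked on p27 knock-out 3 (2.81) and was lowest on stathmin knock-out 2 (-2.42), with the sample channel well above background on 9 of 15 arrays. Cxcl12 and Cxcl14 are made by resting stroma. The brightest probe of Cxcl12 had a value on 6 arrays and on none of the p27 knock-out, since its spots were marked as outliers elsewhere, and its second probe, with 15 values, ranged from -1.95 to 1.48. Cxcl14 ranged from -2.004 on p27 knock-out 2, the array on which most other members were highest, to 0.38.

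Il6, the cytokine that induces the acute-phase response, varied more than any other member. Its log2 ratios were -4.74, -1.89, -1.84 and -1.69 in wild type, -2.004, 2.23, -0.15 and -6.38 in p27 knock-out, -7.14, 0.99, -0.43 and 0.77 in stathmin knock-out, and 0.68, -3.04 and -2.83 in double knock-out. The lowest and highest arrays, stathmin knock-out 1 and p27 knock-out 2, thus differed by 663 times in ratio. Il1b, a ligand that activates NF-kB, reached 3.07 on p27 knock-out 2 and lay between -2.53 and 1.19 elsewhere, and Il1a ranged from -1.96 to 1.61. Both were well above background on 9 of 15 arrays. Tnf, the other classical activator, ranged from -1.62 on p27 knock-out 3 to 2.23 on p27 knock-out 2. The colony-stimulating factors differed among themselves: Csf3, which drives granulocytes, ranged from -2.45 to 2.60 and was highest on p27 knock-out 2, Csf1, which sustains macrophages, from -1.70 to 2.01 and highest on stathmin knock-out 2, and Csf2 from -1.72 to 1.66 and highest on stathmin knock-out 3. Csf2 was well above background on 8 of 15 arrays and Csf3 on 13. Il11 ranged from -1.95 to 1.56.

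Among the NF-kB genes, the inhibitors had the wider ranges. Nfkbia ranged from -2.54 on p27 knock-out 4 to 2.18 on p27 knock-out 2, and Tnfaip3, which removes ubiquitin chains from upstream signalling proteins, from -2.47 on stathmin knock-out 1 to 2.08 on stathmin knock-out 3. At their brightest probes the subunit genes had narrower ranges, Nfkb2 from -0.70 to 0.65, Relb from -0.89 to 0.82 and Nfkb1 from -0.90 to 1.16. The 4 probes of Nfkb1 did not give one pattern. Probe A_52_P582969 ranged from -2.64 on p27 knock-out 4, where the brightest probe gave -0.85, to 1.49, a width of 4.13 beside 4.55 for Tnfaip3 and 4.72 for Nfkbia, so for Nfkb1 the narrower range holds at the brightest probe and not at this one.

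The effectors include an acute-phase protein (Saa3), an iron-siderophore binder (Lcn2), a complement component (C3), the prostaglandin enzyme Ptgs2, the adhesion molecules Icam1 and Vcam1, and Tnfrsf11b, a decoy receptor for the bone cytokine Rankl. Saa3 had -2.74, -2.14, -3.08 and -3.12 in wild type, -1.78, 5.03, 0.59 and -3.38 in p27 knock-out, -2.81, -1.70, -1.80 and 1.49 in stathmin knock-out, and 2.94, -1.96 and -3.04 in double knock-out. Lcn2 had -2.69, -2.94, -3.30 and -3.42 in wild type, -2.70, 4.598, -2.44 and -3.50 in p27 knock-out, -2.86, -1.22, -2.90 and 1.44 in stathmin knock-out, and -1.32, -2.96 and -3.47 in double knock-out. C3 had -2.75, -1.87, -3.32 and -2.71 in wild type, -2.37, 3.96, -1.68 and -3.59 in p27 knock-out, -3.41, 1.35, -1.66 and 1.32 in stathmin knock-out, and -1.34, -2.23 and -2.91 in double knock-out. For all 3 the wild type arrays lay closer together, by SD, than those of any knock-out and far below the pool. p27 knock-out 2 stood alone at the top.

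Ptgs2 and Tnfrsf11b departed from that order. Ptgs2 had -2.23, -1.02, 2.08 and 1.74 in wild type, 0.19, -1.43, -0.024 and -3.87 in p27 knock-out, -4.37, 1.33, -0.24 and -0.15 in stathmin knock-out, and -0.069, -2.34 and -0.38 in double knock-out, so its highest arrays were wild type 3 and 4. Tnfrsf11b was lowest on p27 knock-out 2 (-3.37) and highest on wild type 4 (0.90). Icam1 had -0.95, -0.45, -1.26 and -1.14 in wild type, -0.53, 1.93, -0.34 and -0.32 in p27 knock-out, -0.91, 0.82, 0.29 and 0.0044 in stathmin knock-out, and 0.41, -0.86 and -1.21 in double knock-out. Vcam1 ranged from -1.15 to 1.78, with p27 knock-out 2 highest. Il33, the alarmin kept apart here, had 2.74 on p27 knock-out 2 and lay between -1.58 and 0.69 on all other arrays.

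**Figure D3:**
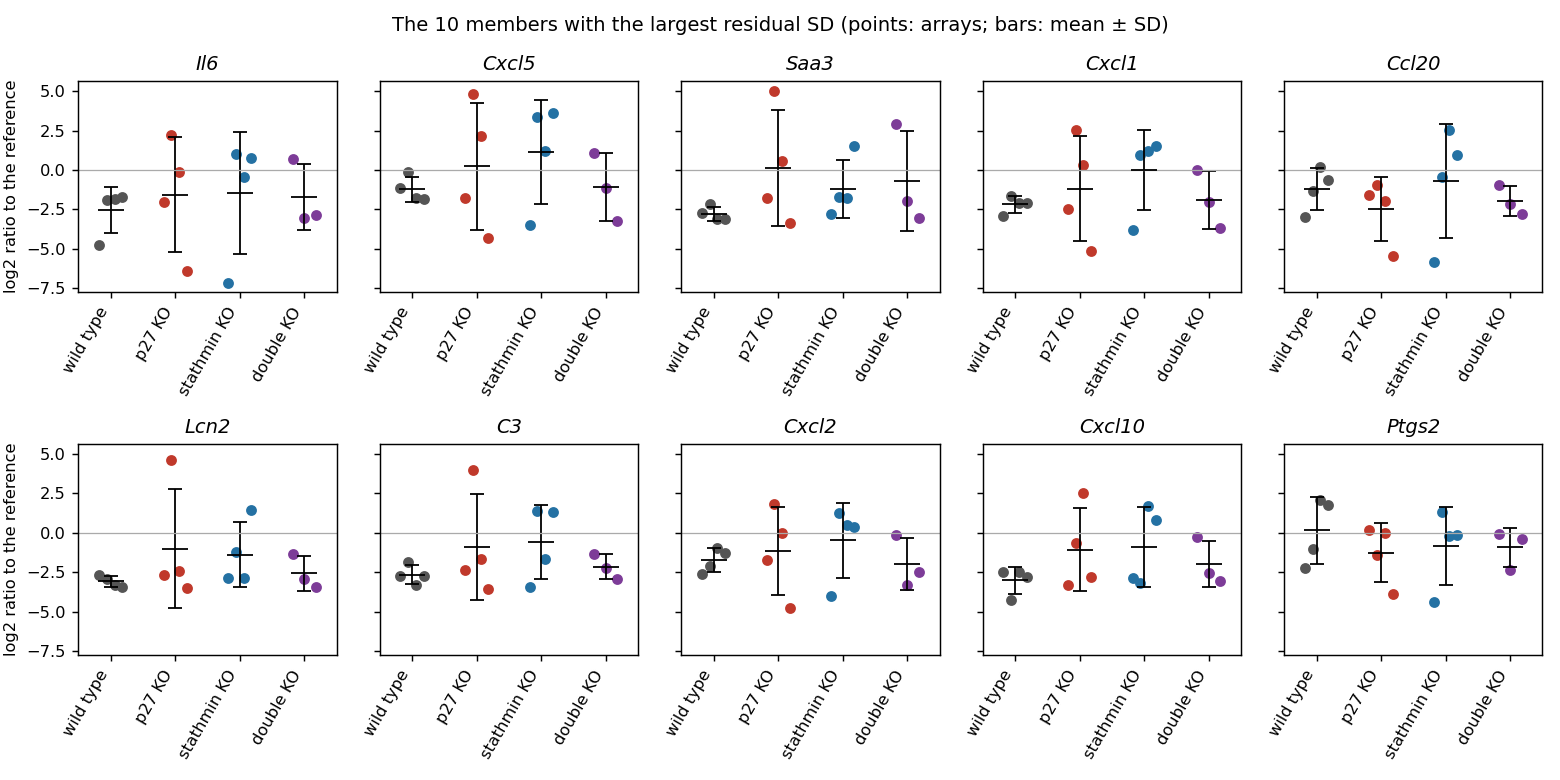
Log2 ratio to the reference of the 10 members with the largest residual SD, 1 point per array and genotype, with the mean ± SD as bars. Wild type points are closer together, by SD, than those of any knock-out for Saa3, Lcn2, C3 and Cxcl1, but not for Ptgs2. In every panel the genotypes overlap.

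Loss of p27 alone was compared with wild type to ask whether any member differs beyond this spread. None passed: limma called 0 of the 44 member probes with a value at an adjusted p of 0.05, against 0 of 27669 probes in all (0%). At an unadjusted p of 0.05, 1 member probe was called, against 5.82% of all tested probes. It was the second probe of Icam1, A_52_P613241, which was higher by 1.04 ± 0.45 (SE) with all 4 knock-out arrays above all 4 wild type arrays (adjusted p = 0.797). A complete separation in that direction was seen for 0.925% of all probes. The brightest probe of Icam1 gave 1.13 ± 0.53 (SE; adjusted p = 0.797), with the arrays overlapping. Within slides, the second probe's difference was above 0 on all 4 slides, from 0.53 to 2.16.

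As a description, the means of 29 of 34 member genes were higher in p27 knock-out than in wild type, against 49.7% of all tested probes, and 15 of 34 were higher by over 1 on the log2 scale, against 1.65%. Both counts hold Cxcl9 (1.27), which was bright enough to be tested only through p27 knock-out. It was well above background on 3 arrays there and on 2 of each other genotype. The median difference of the 34 genes was 0.98, against -0.0016 over all tested probes. These counts rest on p27 knock-out 2: without it the median was 0.12 and 19 of 34 were higher. Without p27 knock-out 3 the median was 0.60, without p27 knock-out 4 it was 1.54, and in the sample channel alone it was 0.62. The largest differences were those of Saa3 (2.89 ± 1.63 SE, adjusted p = 0.797), Ccl5 (2.20 ± 1.28) and Lcn2 (2.08 ± 1.47), and none passed. Ptgs2 (-1.42 ± 1.29), Ccl20 (-1.30 ± 1.48) and Tnfrsf11b (-1.29 ± 0.76) had means lower by over 1, as 1.02% of all probes did. The 95% interval of a member's difference reached, in the median, 2.18 to either side, against 0.48 over all probes. A 4-fold difference thus lay within the median interval of the members. Il33 was higher by 1.66 ± 0.58 (SE; unadjusted p = 0.013 and adjusted p = 0.797).

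Loss of stathmin alone gave no call among the 45 member probes, against 2 of 27677 probes in all (0.00723%), and 0 member probes at an unadjusted p of 0.05, against 4.80% of all probes. As a description, 30 of 35 genes had a higher mean than in wild type (50.4% of all probes) and 16 of 35 by over 1 (0.936%). The 30 include Csf2, which was bright enough to be tested only through stathmin knock-out, with 3 arrays well above background there. The median difference was 0.94, against 0.0026 over all probes, 0.45 without wild type 1, 0.51 without stathmin knock-out 4 and 0.63 in the sample channel alone. Cxcl5 (2.38 ± 1.86 SE), Ccl5 (2.34 ± 1.28), Cxcl1 (2.16 ± 1.496), Cxcl10 (2.11 ± 1.31) and C3 (2.06 ± 1.399) had the largest differences. Stathmin knock-out 1 lay below every wild type array for Ccl2, Cxcl1, Cxcl2, Cxcl5 and Il6. It also did so for other members, among them Ccl7, Ccl9, Ccl20, Il1a and Il1b. No member had all 4 knock-out arrays above all wild type arrays, against 1.33% of all probes.

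Loss of both proteins gave no call among the 45 member probes, against 1 of 27677 in all (0.00361%), and 0 at an unadjusted p of 0.05, against 2.26%. The mean was higher than in wild type for 26 of 35 genes (48.9% of all probes), with a median difference of 0.28 against -0.0057 over all probes. Without double knock-out 1 the median was -0.029 and 15 of the genes were higher. It was 0.16 without wild type 1, 0.47 without wild type 2, 0.43 without double knock-out 2, 0.44 with median centring of the arrays and 0.71 with the slide as a block. Saa3 (2.09 ± 1.76 SE), Ccl8 (1.29 ± 0.61) and Cxcl10 (1.06 ± 1.42) were higher by over 1, as were 0.535% of all probes. Ccl8 and Cxcl9 were the members with all 3 knock-out arrays above all wild type arrays, 2 of 34 genes against 2.91% of all probes. The difference of Ccl8 had an adjusted p of 1.00 by limma, and within slides it was 2.76, 0.55 and 0.54.

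The double knock-out was also set against both single ones, to ask what the second loss adds. Against p27 knock-out, 0 of 44 member probes were called (0.00361% of all probes), 0 at an unadjusted p of 0.05 (2.89%), and 7 of 34 genes had a higher mean (50.2%), with a median of -0.35. This count moved to 28 without p27 knock-out 2, 13 without p27 knock-out 3, 3 without p27 knock-out 4, 12 without double knock-out 2, 15 without double knock-out 3, and 16 with the slide as a block. The median ranged from -1.003 without p27 knock-out 4 to 0.29 without p27 knock-out 2, and was -0.59 without p27 knock-out 1, -0.72 without double knock-out 1 and -0.084 with the slide as a block. Against stathmin knock-out, 0 of 45 were called (0% of all probes), 0 at an unadjusted p of 0.05 (3.54%), and 10 of 35 genes had a higher mean (50.2%), with a median of -0.37. Without stathmin knock-out 1 the count was 3 and the median -0.92, and without double knock-out 1 they were 6 and -0.80. Leaving out stathmin knock-out 2, 3 or 4 or double knock-out 2 brought the median to between -0.19 and -0.15, and it was -0.23 in the sample channel alone and -0.093 with the slide as a block.

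The interaction asked whether the joint loss differs from the sum of the single losses. It gave no call among 44 member probes (0% of all probes). At an unadjusted p of 0.05 limma called both probes of Icam1, 2 of 44 against 7.26% of all probes, at -1.74 ± 0.79 (SE) and -1.53 ± 0.66 with an adjusted p of 0.682. The estimate was above 0 for 5 of the 34 genes, against 49.8% of all probes, with a median of -1.27 against -0.0022 over all probes. Without p27 knock-out 2 the median was -0.50. All 6 comparisons share arrays, and each of the 3 against wild type uses the same 4 wild type arrays.

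Both dyes were examined for the brightest members. The reference is 1 pool, and its signals correlated at 0.994 to 0.999 between arrays over all probes. For Cxcl5 the reference signal nevertheless ranged from 11432 units on p27 knock-out 2 to 514608 on p27 knock-out 4, while the sample signal went from 625413 to 58877. For Saa3 the reference ranged 40.4-fold and the sample 10.7-fold, and for Ccl2 15.7-fold and 4.10-fold, the sample of Ccl2 being saturated on 6 arrays. Cxcl5 was saturated on 3 arrays and Lcn2 and Ccl7 on 1 each, and ratios and differences that include such a spot are not exact. In Cxcl5, Saa3 and Ccl2, 3 of the 35 genes, the residual SD of the reference channel exceeded that of the sample channel (1.71 against 1.33 for Cxcl5). For Il6 it was 0.23 against 2.85. In the sample channel alone the median residual SD of the members was 1.26, so a large spread remained, but ratios of Cxcl5, Saa3, Ccl2 and, less so, Lcn2 (reference 17.4-fold) hold a part from the reference channel.

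**Figure D4:**
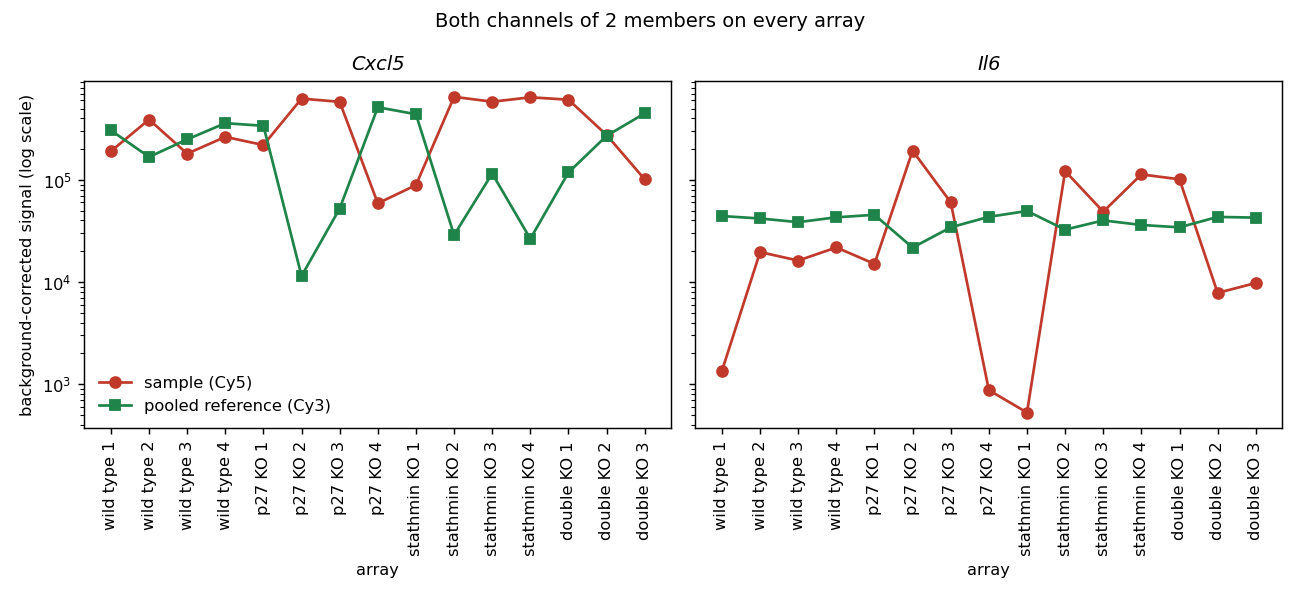
Background-corrected signal (log axis) of the sample (red circles) and of the pooled reference (green squares) for Cxcl5 and Il6 on each of the 15 arrays. For Cxcl5 the reference drops where the sample is high, from 514608 to 11432 units, whereas for Il6 the sample ranges from 525 to 193031 units and the reference from 21687 to 49524.

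Markers of other cells were set beside the members. All 14 fibroblast markers were measured, and their mean log2 ratio ranged from -0.17 to 1.17 over the arrays. All 25 markers of macrophages and blood cells, which cultures made from embryos could hold, were tested, with a mean ratio from -2.84 on p27 knock-out 3 to 1.89 on p27 knock-out 2. In wild type it ranged from -1.83 to -0.51, in p27 knock-out from -2.84 to 1.89, in stathmin knock-out from -1.81 to -1.01 and in double knock-out from -2.49 to 1.35. None of these markers was at background throughout: Adgre1, a macrophage surface marker, ranged from -5.44 to 4.06. On p27 knock-out 2 this list did not move as one. Adgre1 (4.06), Lyz2 (4.03) and Cybb (3.42) were at their highest of all arrays there. C1qa (-0.038), C1qc (0.019), C1qb (0.29) and Mrc1 (0.44) were not, and each was higher on p27 knock-out 4 and double knock-out 3. p27 knock-out 2, the array on which most members were highest, also had the highest fibroblast mean (1.17) and the lowest means of the epithelial (-1.20), neural (-0.86) and muscle (-1.005) lists. Its fibroblast markers went both ways. Dcn (5.54), Lum (5.06), Pdgfra (3.24) and Loxl1 (1.28) were at their highest of all arrays there. Thy1 (-1.97), Postn (-1.96), Fn1 (-0.60) and Col1a1 (-0.16) were at their lowest, and the other fibroblast markers lay between. Wild type 2, 3 and 4 had epithelial means of 0.54, 0.58 and 0.57, and no knock-out array exceeded 0.044. Wild type 1, at 0.043, lay within the range of the knock-out arrays. The endothelial means lay between -0.82 and 0.28. The part of these cells in the members' differences was not tested. In RNA of whole cultures, fewer such cells and less RNA per cell cannot be told apart. Interferon-stimulated genes, 33 of 35 listed and tested, had a mean of -1.87 to -1.65 in wild type, -1.82 to 1.73 in p27 knock-out, -1.76 to 1.49 in stathmin knock-out and -1.89 to 0.36 in double knock-out.

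Some members followed these marker means over the 15 arrays. Pearson's r, Spearman's rho and permutation p (100000 resamples, two-sided) were computed for 35 genes (34 members with all values, and Il33) against both means, 70 relations in all, with Benjamini-Hochberg correction. With the macrophage and blood mean, 4 genes passed by both measures: Ccl4 (r = 0.90, rho = 0.86), Tnf (0.86, 0.83), Ccl9 (0.79, 0.73) and Ccl3 (0.77, 0.72), with adjusted permutation p of 0.00070 to 0.0053 for r and 0.0070 to 0.046 for rho. Without p27 knock-out 2 and double knock-out 3, the arrays farthest from the median of that mean, r was 0.81, 0.68, 0.51 and 0.54, and only Ccl4 still passed. With the interferon mean 12 genes passed by Pearson's r, led by Cxcl10 (r = 0.88, rho = 0.74, adjusted permutation p = 0.0040 and 0.046), Ccl5 (0.87 and 0.68) and Il1a (0.83 and 0.42), but of these only Cxcl10 also passed by rank. Icam1 (rho = 0.70) and Tnfrsf11b (rho = -0.70) passed by rank and not by r. Without p27 knock-out 3 and stathmin knock-out 4, 7 of these 12 still passed, and r of Cxcl10 was 0.77. With genotype means removed, the same 4 genes passed with the macrophage mean, and 9 of the 12 with the interferon mean. The most variable member, Il6, had r = -0.038 with the macrophage mean and 0.52 with the interferon mean, and passed in neither. With slide means removed, a choice made after seeing the data, the same 4 passed with the macrophage mean, and with the interferon mean the same 12 among 16. Whether wild type 3 and 4, whose ratios correlated at 0.81 over all tested probes, are independent was not tested. The permutations treated them as separate arrays. The relations were computed for these 35 genes only, so the counts have no share over all tested probes beside them. The part of other cells or of interferon in the members' differences was not tested.

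**Figure D5:**
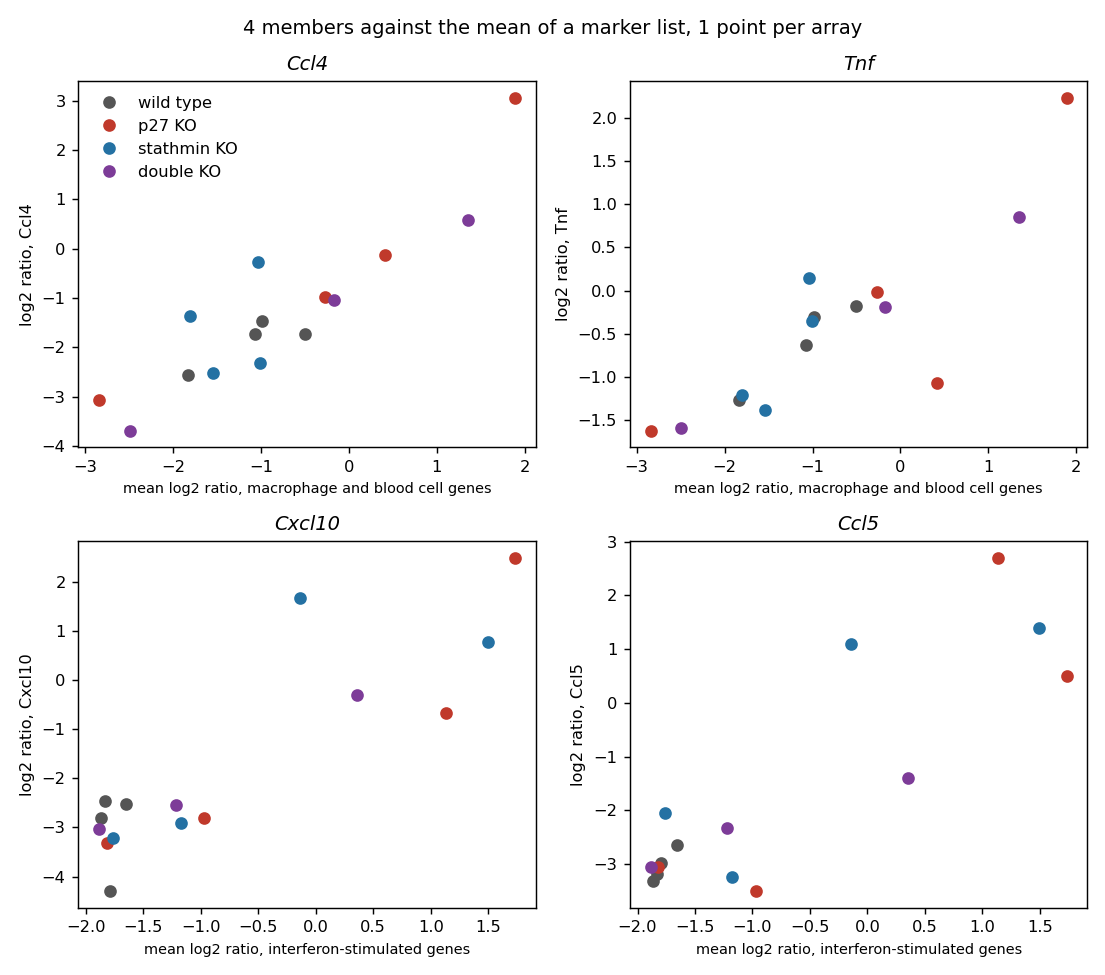
Log2 ratio of Ccl4 and Tnf against the mean ratio of 25 macrophage and blood cell genes, and of Cxcl10 and Ccl5 against that of 33 interferon-stimulated genes, 1 point per array coloured by genotype. Ccl4 and Tnf climb with the macrophage mean across genotypes, and Cxcl10 and Ccl5 are high on the 5 arrays with the highest interferon mean.

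The other genes of the pathway were compared from lists of receptors, signalling proteins, feedback regulators and partners. Of 71 listed genes, 67 were tested and limma called 0 in each comparison. At an unadjusted p of 0.05, 5 were higher and 1 lower in p27 knock-out, 3 and 1 in stathmin knock-out, and 1 and 1 in double knock-out. These 6, 4 and 2 of 67 genes stand beside 5.82%, 4.80% and 2.26% of all tested probes. The median residual SD of the 67 genes was 0.55, between all probes (0.32) and the members (1.55), and that of the 21 signalling genes was 0.35. In p27 knock-out the smallest p were those of Tnip2, which binds A20 (0.58 ± 0.18 SE), Myd88, the adaptor of Toll-like and interleukin 1 receptors (0.56 ± 0.20), and Rel, an NF-kB subunit (-0.57 ± 0.20), each at an adjusted p of 0.797. In stathmin knock-out they were those of Map3k14, the kinase of the alternative NF-kB pathway (0.57 ± 0.23), Rel (-0.50 ± 0.20) and Myd88 (0.44 ± 0.20), each at an adjusted p of 0.917. In double knock-out they were those of Traf2 (0.37 ± 0.13), Rel (-0.49 ± 0.22) and Tnip2 (0.41 ± 0.20), each at an adjusted p of 1.00.

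The labels were checked on the targeted genes. Stmn1 at probe A_52_P319161 had a log2 ratio of -2.78 ± 0.15 (SD, n = 4) in stathmin knock-out cells and -2.77 ± 0.077 (n = 3) in double knock-out cells, against 0.76 ± 0.10 (n = 4) in wild type cells and 0.94 ± 0.48 (n = 4) in those without p27. Its other probe, A_51_P495641, overlapped between the genotypes. The tested probe of Cdkn1b, A_51_P146126, overlapped between genotypes, at 0.22 ± 0.50 (SD) in wild type and -0.34 ± 0.52 in p27 knock-out. Its probe A_51_P169173, too dim to be tested, lay between -0.20 and -0.10 in p27 knock-out and between 0.22 and 0.36 in wild type. Another Cdkn1b probe, A_52_P673863, also too dim, had the higher mean in p27 knock-out (0.099, against -0.081 in wild type). Its arrays overlapped, from -0.33 to 0.36 in p27 knock-out and from -0.13 to -0.012 in wild type. Whether these probes lie in the deleted part was not tested. Over all tested probes the ratios of p27 knock-out 2 correlated below -0.3 with 3 wild type arrays (-0.47, -0.38 and -0.31), while their sample signals correlated at 0.93 or above. Since the labels state the dyes of every array, the direction of the ratios was kept.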

How the data were processed

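RNA of 15 fibroblast cultures was hybridised on Agilent 2-colour arrays, with the sample in Cy5 and pooled reference RNA in Cy3, without a dye swap, per the labels. The deposited scanner files came from Agilent Feature Extraction 9.1.3.1, per the file headers; the authors deposited them as written by the scanner software. In them the intensity of each spot was made by extracting mean signal and median background from the scanned image, without background subtraction, per the file headers. The log10 ratio of red over green in them was made by the same software, per the file headers. The authors' deposited value table holds log2 ratios whose normalization is not given in the sources used here; per array it correlated at 0.82 to 0.94 with the scanner ratio.

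In limma 3.58.1 (R 4.3.3), backgrounds were corrected by normexp (offset 50) and ratios normalised within arrays by loess. Outlier spots were left out, and replicate spots averaged. Testing needed a Cy5 signal well above background on 3 or more arrays of some genotype. One fit of 4 genotype means gave 6 comparisons, two-sided, with Benjamini-Hochberg correction over all tested probes, and was tested on simulated data. Intervals are at 95%, and precision is limited by how many arrays there are. Between 59.3 and 78.9% of spots per array were well above background, and 0.0945 to 0.265% were saturated. Replicate numbers were not used to pair samples.

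The members and lists were chosen with earlier results of these data known. Members were to be given array by array where they had one of the 10 largest residual SDs or an unadjusted p under 0.05 in any comparison. Of the pathway lists, the 3 smallest p per comparison with wild type are named, and Cdkn1b and Stmn1 check the labels. Every genotype had a fixed position on the slides, so its effect and that of position cannot be told apart.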

Additional observations from a re-analysis of the deposited data

Results flagged for a closer look

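In a group of 4 arrays, an array was marked where its gap to the nearest other array took a share of the group's whole range above Dixon's critical value. Of 105 groups (36 genes, with Il33, in the 3 genotypes with 4 arrays, where all 4 had a value), 11 were marked, and chance marks about 1 in 20. The groups share arrays, and the share marked over all tested probes was not counted, so no excess is read from this count. Wild type 1 stood low for 5 genes: Il6 at -4.74 (other wild type arrays -1.89 to -1.69), Ccl3 at -3.16 (-2.06 to -1.86), Tnfaip3 at -2.10 (-0.31 to 0.04), Nfkbia at -2.02 (-0.83 to -0.64) and Ccl2 at -1.56 (0.08 to 0.26). Stathmin knock-out 1 stood low for Cxcl1 at -3.82 (0.98 to 1.53) and Ccl2 at -2.36 (2.18 to 2.67). Stathmin knock-out 2 stood high for Il11 at 1.56 (-1.47 to -1.18). p27 knock-out 2 stood high for Lcn2 at 4.598 (-3.50 to -2.44), Il1b at 3.07 (-2.49 to -1.89) and Icam1 at 1.93 (-0.53 to -0.32). All values are log2 ratios to the pooled reference.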

How the results depend on the processing

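No member probe was called in any of the 6 comparisons under any alternative run, including each array left out in turn, and over 6317 recomputed differences the smallest adjusted p by limma was 0.324. The sign of the difference changed in 254 of these (4.02%), none of them called. The count of all probes called in stathmin knock-out against wild type (2) was 1 in the sample channel alone, with 1 probe per gene and with only the genotypes compared. In double knock-out against wild type (1) and against p27 knock-out (1) it was 0 with 1 probe per gene and with trend and robust variances. It was 2 in both with the authors' deposited log ratios, the replicate block, the slide block and Xist as a covariate. The replicate block moved the median member difference of double against p27 knock-out from -0.35 to -0.53. With the slide block, 16 of 34 members had a higher mean in double than in p27 knock-out, in place of 7. Leaving out 1 array at a time gave 1 to 3 calls in stathmin knock-out, 1 to 2 in double knock-out, 1 to 2 in double against p27 knock-out, 0 to 1 in double against stathmin knock-out and 0 to 1 in the interaction. The members with a higher mean then numbered 19 to 30 in p27 knock-out and 15 to 28 in double knock-out. They numbered 3 to 28 in double against p27 knock-out, 3 to 14 in double against stathmin knock-out and 3 to 7 in the interaction. The median residual SD of the members was 1.20 without p27 knock-out 2 and 1.62 without wild type 3; filters, blocks, variance models and left-out arrays for this value were chosen after seeing the data. Without the 2 arrays farthest from the median, 1 member followed the macrophage mean in place of 4. The cause of these changes was not tested. The residuals of same-numbered arrays of different genotypes correlated between -0.26 and 0.42 (median 0.17), 12 of 21 such pairs above 0.1. Those of other numbers correlated between -0.52 and 0.59 (median -0.046), 16 of 63 pairs above 0.1. Of 15 arrays, 5 correlated best with their own number. Whether same-numbered arrays share more than a number was not tested, so what the replicate block removes is not known. Probes near background limit Csf2, Il1a, Il1b and Cxcl9.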
